A study of Mus musculus with 16 samples.

Results

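Kit, Pik3ca, Pdpk1, Akt1, Foxo3, Tsc1, Tsc2, Mtor and Rps6kb1 are 9 of the 25965 genes in the deposited expression table, chosen by name as the signalling pathway that wakes resting oocytes. Expression was measured in mouse oocytes sorted by diameter, with 2 RNA-seq libraries (A and B) in each of 4 classes, from 10–30 and 40–45 μm up to 50–55 μm and then 60–65 μm, and 1 column for GV oocytes, the fully grown stage with an intact nucleus, the germinal vesicle. DNA methylation was measured by RRBS, which reads CpG-rich fragments, in 2 libraries for each class from 40–45 μm upwards, and by PBAT, which reads the whole genome, in 1 library of 60–65 μm oocytes. All samples were wild-type oocytes of C57BL/6Babr mice (C57BL/6 in the labels), untreated and pooled from many cells by hand picking. Larger classes came from older juvenile mice, so diameter and age cannot be told apart, and no label ties a library to an animal, so the p-values measure only the spread between pools. The 10–30 μm class was set by diameter alone, so resting oocytes and those that have begun to grow are not separated in it.

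KIT is a receptor tyrosine kinase on the oocyte, and its ligand comes from the granulosa cells around it. The active receptor recruits PI3-kinase, whose lipid product brings PDPK1 and AKT to the membrane. AKT then phosphorylates FOXO3, which leaves the nucleus, and inhibits the TSC1–TSC2 complex, which otherwise holds back mTORC1 and its target S6 kinase. In mouse ovaries, loss of Foxo3, Tsc1 or Tsc2 wakes primordial follicles all at once. Most of these steps act on proteins, by phosphorylation and movement between compartments, which RNA levels do not measure.

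RPKM (reads per kilobase of exon, scaled to the size of the library) is a share of a library, so more RNA per oocyte is not seen in it, and fewer cells of a type and less RNA per cell cannot be told apart. One read on 1 kb of exon was worth between 0.00504 and 0.0101 RPKM in the 9 RNA-seq columns, far below the lowest value of any of the 9 genes. The 12 oocyte markers summed to between 3146 and 3253 RPKM at 10–30 μm and between 2769 and 2899 RPKM at 60–65 μm, with 3 of them higher and 6 lower over this interval. Zp2, a coat protein of the egg, was highest on average. The 12 granulosa markers rose in sum from between 1.97 and 2.43 RPKM at 10–30 μm to between 6.86 and 7.41 RPKM at 60–65 μm. This was mostly Nr5a2, a nuclear receptor, while 9 of the 12 stayed below 0.5 RPKM in all 8 libraries. The 10 theca, stroma and vessel markers summed to between 2.01 and 5.62 RPKM, but moved in opposite directions. Pecam1, an adhesion protein of vessels, rose from 0.549 ± 0.026 to 4.45 ± 0.36 RPKM from 10–30 to 60–65 μm, whereas the collagen genes Col1a1 and Col3a1 fell from 1.39 ± 0.33 to 0.320 ± 0.11 RPKM and from 0.980 ± 0.26 to 0.238 ± 0.030 RPKM (SD, n = 2 each). Of the blood and mast cell markers, which matter for Kit because mast cells also carry it, 4 of the 9 in the table were at 0 in all 8 libraries and their sum never passed 0.425 RPKM. The part of other cells in the changes below, among them the falls that run with the collagens, was not tested.

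The promoters of 3 members are shown because methylation was read at their CpGs and because the 2 starts of Pdpk1 differ in CpG number. They are RefSeq sequences on GRCm38.p6, the 250 bases before each transcript start, read 5′ to 3′ on the gene's strand with every CpG in capitals (a last C alone begins a CpG cut by the end of the run).
Kit (chr5:75574737-75574986, + strand): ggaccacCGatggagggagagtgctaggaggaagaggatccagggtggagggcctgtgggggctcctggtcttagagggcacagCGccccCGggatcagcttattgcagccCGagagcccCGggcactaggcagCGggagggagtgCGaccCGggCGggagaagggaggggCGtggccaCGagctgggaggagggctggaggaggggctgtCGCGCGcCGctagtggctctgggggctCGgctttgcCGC
Foxo3 (chr10:42276696-42276945, - strand): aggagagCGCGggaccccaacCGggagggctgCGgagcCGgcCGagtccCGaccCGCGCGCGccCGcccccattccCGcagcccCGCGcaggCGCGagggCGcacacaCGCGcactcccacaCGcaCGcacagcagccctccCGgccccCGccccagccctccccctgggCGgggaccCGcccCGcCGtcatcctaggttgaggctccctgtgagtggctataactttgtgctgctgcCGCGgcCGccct
Pdpk1, outer start (chr17:24150923-24151172, - strand): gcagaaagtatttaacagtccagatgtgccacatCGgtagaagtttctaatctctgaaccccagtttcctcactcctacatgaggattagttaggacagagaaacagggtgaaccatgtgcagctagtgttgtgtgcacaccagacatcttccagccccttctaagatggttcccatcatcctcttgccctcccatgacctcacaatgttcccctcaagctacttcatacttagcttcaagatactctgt
Pdpk1, inner start (chr17:24141595-24141844, - strand): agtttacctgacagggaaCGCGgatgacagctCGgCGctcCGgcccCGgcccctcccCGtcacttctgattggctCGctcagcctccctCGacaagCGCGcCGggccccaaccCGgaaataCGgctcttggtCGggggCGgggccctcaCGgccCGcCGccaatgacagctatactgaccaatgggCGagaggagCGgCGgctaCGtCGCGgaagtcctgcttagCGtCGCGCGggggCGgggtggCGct
Over windows from 250 bases before to 50 after the start, Kit had 20 CpGs, Foxo3 had 35 and the inner start of Pdpk1 had 37, against a median of 7 over 32851 mouse promoters. The outer start of Pdpk1 had 1 CpG, and 14.1% of the promoters had 1 or none. All 9 genes matched the table, with 12 starts between them. The forkhead core GTAAACA, read on both strands, was present in 1 of these 12 windows, at the outer start of Akt1, and in 3.65% of all promoters, a match of letters only.

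Per length of exon, Kit was the most abundant of the 9 transcripts in every size class, followed by Foxo3. At 60–65 μm, Kit stood at the 95.4th percentile of the 10518 genes tested and Foxo3 at the 92.7th, while Tsc2 and Rps6kb1 were at the 35.1st and 28.6th. Mean levels at 60–65 μm ran from Kit at 27.7 RPKM through Foxo3 (20.4), Akt1 (8.21), Pdpk1 (6.66), Mtor (5.32), Tsc1 (4.06), Pik3ca (3.95) and Tsc2 (1.90) to Rps6kb1 (1.48). Only Tsc1 and Pik3ca had overlapping libraries among neighbours in this order. At 10–30 μm the libraries of Akt1, Pdpk1 and Mtor overlapped with each other, and those of Mtor also with those of Tsc2, while Akt1 and Pdpk1 were above Tsc2 in both libraries.

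Kit lies on the + strand at chr5:75574916-75656722 (GRCm38, as for all genes here). Its transcript was present at 24.9 and 38.0 RPKM in the A and B libraries at 10–30 μm, 23.3 and 33.4 at 40–45 μm, 23.7 and 31.9 at 50–55 μm and finally, at 60–65 μm, 27.7 and 27.7. The classes overlapped in every comparison, and the 2 libraries of a class differed by 1.53, 1.43 and 1.35 times in the 3 smaller classes. From 10–30 to 60–65 μm the fitted change was -0.15 on the log2 scale (95% interval -0.64 to 0.35), adjusted p = 0.57. Changes within this interval could not be resolved with 2 libraries a class. Cdk16, Ubl7 and Tnfaip1 had the patterns most like Kit over the 8 libraries (Pearson r of 0.985, 0.984 and 0.983), a likeness that includes the gap between libraries of a class.

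Among 17 genes that act beside Kit (ligand, adaptors and other receptors), 12 were expressed highly enough to test, of which 5 rose and 3 fell from 10–30 to 60–65 μm. This count and those of the lists below stand against 63.3% of all genes tested that passed over the same interval, 31.5% higher and 31.8% lower. The largest rises were those of Cbl, a ubiquitin ligase that turns receptors over (0.804 ± 0.092 to 1.71 ± 0.31 RPKM, SD, n = 2 each), and of Fyn, a Src family kinase (7.59 ± 1.64 to 13.1 ± 0.14 RPKM). Insr, the insulin receptor, fell from 0.961 ± 0.227 to 0.180 ± 0.016 RPKM and Irs2, its adaptor, from 0.696 ± 0.174 to 0.265 ± 0.024 RPKM. Kitl, the Kit ligand, lay between 0.14 and 0.495 RPKM in the growing oocytes and was not tested.

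Pik3ca, on the + strand at chr3:32397671-32468486, encodes the alpha catalytic subunit of PI3-kinase, and its transcript rose most of the 9. It measured 1.93 and 1.99 RPKM in the A and B libraries at 10–30 μm, 2.92 and 2.40 at 40–45 μm, 3.83 and 3.31 at 50–55 μm and finally, at 60–65 μm, 4.0 and 3.89. No 2 classes overlapped. The rise from 10–30 to 60–65 μm was 0.98 ± 0.13 on the log2 scale (SE), or 1.97-fold (limma, adjusted p = 0.00028), and it passed the threshold in all 17 alternative fits. Its first step, to 40–45 μm, was 0.48 ± 0.13 (adjusted p = 0.030) and passed in 11 of 17. The call was lost without either A library of the 2 classes, without 10–30 μm B and without either 60–65 μm library. It was also lost with only the 2 classes compared. Of the 12 genes listed for PI3-kinase subunits, Pik3ca not among them, 9 were tested, with 3 higher and 2 lower. Pik3cd, the delta catalytic subunit, rose from 22.8 ± 6.4 to 44.2 ± 1.5 RPKM and was the most abundant catalytic subunit measured in both of these classes. Pik3r1, a regulatory subunit, rose from 7.83 ± 1.36 to 11.4 ± 0.38 RPKM. Pik3r2, another regulatory subunit, fell from 1.84 ± 0.29 to 1.27 ± 0.04 RPKM and Pik3c3, the class III enzyme, by 0.31 ± 0.09 on the log2 scale.

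Pdpk1, on the - strand at chr17:24073680-24150924, encodes the kinase that phosphorylates the activation loop of AKT. Its values were 5.24 and 6.03 RPKM at 10–30 μm, 5.40 and 5.64 at 40–45 μm, 6.18 and 6.15 at 50–55 μm and finally, at 60–65 μm, 6.67 and 6.65. The 2 end classes did not overlap, but the rise was small, 0.24 ± 0.09 on the log2 scale (adjusted p = 0.039). It passed in 8 of 17 alternatives. Of the 8 fits that left out a library it passed only in that without 10–30 μm B, and the adjusted p in the other 7 ran from 0.053 to 0.16, highest without 10–30 μm A.

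Akt1, on the - strand at chr12:112653821-112674884, encodes the AKT kinase. Its values were 5.23 and 6.05 RPKM at 10–30 μm, 5.55 and 6.49 at 40–45 μm, 6.79 and 7.26 at 50–55 μm and finally, at 60–65 μm, 8.69 and 7.74. Both libraries of the largest class were above all 6 others. The rise of 0.54 ± 0.11 on the log2 scale (adjusted p = 0.0025) passed in all 17 alternatives. Its paralogue Akt2 fell over the same interval, from 6.24 ± 0.50 to 3.69 ± 0.10 RPKM. Akt1 had the lower mean of this pair at 10–30 μm and the higher at 60–65 μm. Among the 8 AKT paralogues and substrates, 6 were tested, with 1 higher (Gsk3a, a kinase of glycogen metabolism, 4.57 ± 0.94 to 6.25 ± 0.36 RPKM) and 2 lower.

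Of 11 phosphatases that oppose PI3-kinase and AKT, 10 were tested, with 2 higher and 4 lower and a median change of -0.41 on the log2 scale, against -0.00024 over all genes tested. Inpp5k, an inositol phosphatase, fell from 2.66 ± 0.03 to 1.76 ± 0.06 RPKM. Phlpp2, a phosphatase of AKT itself, rose from 1.16 ± 0.0014 to 2.38 ± 0.63 RPKM and Inpp4a, which acts on a lipid of the same pathway, from 0.834 ± 0.142 to 1.32 ± 0.17 RPKM.

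Foxo3, on the - strand at chr10:42181841-42276755, encodes the forkhead factor that keeps primordial oocytes at rest. Its transcript measured 10.3 and 15.5 RPKM in A and B at 10–30 μm, 13.5 and 16.8 at 40–45 μm, 17.0 and 19.5 at 50–55 μm and finally, at 60–65 μm, 21.5 and 19.4. The end classes did not overlap, whereas B at 50–55 μm lay just above B at 60–65 μm. Foxo3 transcript was 0.69 ± 0.17 higher on the log2 scale at 60–65 μm than at 10–30 μm, or 1.61-fold (adjusted p = 0.0073). The call held in 16 of 17 alternatives and was lost without 60–65 μm A (0.63, adjusted p = 0.052). Without 10–30 μm A the rise was 0.43 (adjusted p = 0.038), smaller by over 1.5 times. The ratio of Foxo3 to Kit rose from 0.415 (A) and 0.407 (B) in the smallest class to 0.777 and 0.698 in the largest. The 2 letters lay close together in this ratio at 10–30 μm, where both genes were higher in B. Zcchc2, Gtf3c1 and Usp21 had the patterns most like Foxo3 (r of 0.998, 0.997 and 0.997), but 508 genes had an r of at least 0.95 over these 8 libraries.

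Of the other forkhead genes listed, Foxo1 rose from 2.90 ± 1.58 to 6.83 ± 0.68 RPKM (adjusted p = 0.0091), and Foxo4 and Foxo6 were too low to test, at 0.567 RPKM or less in every growing library. Among 14 textbook FOXO targets, 10 were tested and 5 fell, with 0 higher. Over all genes tested 31.8% were lower and 31.5% higher. Counting both directions, the share called is below the 63.3% of all genes. Cat, catalase, fell from 1.13 ± 0.17 to 0.0996 ± 0.0033 RPKM and Gadd45a, a stress response gene, from 2.56 ± 0.26 to 1.10 ± 0.17 RPKM. Cdkn1b, the cell cycle inhibitor, fell by 0.33 ± 0.12 on the log2 scale (adjusted p = 0.043), and Bcl2l11, which promotes cell death, stood at 1.05 ± 0.32 and 1.2 ± 0.0021 RPKM and did not pass (adjusted p = 0.27). The median of the 10 was -0.30.

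Tsc1 and Tsc2 encode the 2 partners of the complex that restrains mTORC1, and they moved in opposite directions. Tsc1, on the + strand at chr2:28641228-28691167, measured 2.22 and 2.30 RPKM at 10–30 μm, 2.51 and 2.63 at 40–45 μm, 3.58 and 3.35 at 50–55 μm and finally, at 60–65 μm, 4.21 and 3.90. Every class was above the one before it without overlap. The rise of 0.81 ± 0.09 on the log2 scale (1.76-fold, adjusted p = 0.00012) passed in all 17 alternatives, and the step from 40–45 to 50–55 μm, 0.38 ± 0.09 (adjusted p = 0.042), passed in 9 of 17, but in only 2 of the 8 fits without a library, those that left out a 10–30 μm library.

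Tsc2, on the - strand at chr17:24595937-24632629, measured 2.84 and 5.02 RPKM at 10–30 μm, 1.90 and 3.36 at 40–45 μm, 1.85 and 2.48 at 50–55 μm and finally, at 60–65 μm, 1.98 and 1.83. The 2 libraries of a class differed by 1.76 and 1.77 times in the 2 smallest classes. The end classes did not overlap, and the transcript fell by 0.95 on the log2 scale (SE 0.28, adjusted p = 0.018). Without 10–30 μm B it was -0.62 with adjusted p = 0.093, a change of over 1.5 times in size, and without 60–65 μm A or B the adjusted p was 0.064 or 0.082. Tsc2 shares 578 bases with Pkd1 on the other strand, which averaged 1.53 RPKM. The libraries were strand-specific, but whether reads were counted by strand is not given in the sources used here. The ratio of Tsc1 to Tsc2 was 0.782 and 0.459 at 10–30 μm, 1.32 and 0.782 at 40–45 μm, 1.93 and 1.35 at 50–55 μm and finally, at 60–65 μm, 2.13 and 2.13. Thus Tsc2 was the more abundant of the pair in both smallest libraries and Tsc1 in both largest.

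Mtor, on the + strand at chr4:148448611-148557683, encodes the kinase shared by mTORC1 and mTORC2. Its values were 4.44 and 6.44 RPKM at 10–30 μm, 4.37 and 6.15 at 40–45 μm, 5.00 and 5.73 at 50–55 μm and finally, at 60–65 μm, 5.36 and 5.27. All classes overlapped, and the fitted change was -0.01 on the log2 scale (95% interval -0.41 to 0.40, adjusted p = 0.98). Rps6kb1, on the - strand at chr11:86498871-86544805, encodes S6 kinase, the effector of mTORC1. It lay between 1.45 and 1.77 RPKM in all 8 libraries and changed by -0.23 on the log2 scale (95% interval -0.46 to 0.01, adjusted p = 0.084), below the threshold although its end classes did not overlap. Rps6kb1 shares 155 bases with Rnft1 on the other strand, with the same limit as for Tsc2.

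The 10 mTORC1 subunits and regulators around Mtor were all tested, with 2 higher and 2 lower. Mlst8, a subunit of both complexes, rose from 1.89 ± 0.09 to 2.43 ± 0.05 RPKM and Tti1, which helps to assemble them, by 0.30 ± 0.11 on the log2 scale. Rheb, the GTPase that switches mTORC1 on, fell from 4.28 ± 0.26 to 2.92 ± 0.13 RPKM and Tbc1d7, the third partner of TSC1 and TSC2, from 3.97 ± 0.06 to 2.89 ± 0.05 RPKM. Of 6 genes for mTORC2 and the SGK kinases it controls, 5 were tested and 3 rose, with 0 lower. Prr5l, an mTORC2 partner, rose from 1.03 ± 0.09 to 6.50 ± 0.62 RPKM and Sgk1 from 0.449 ± 0.054 to 1.18 ± 0.08 RPKM. Of 12 genes for outputs of S6 kinase and 4E-BP, 11 were tested, with 2 higher and 5 lower. Eif4ebp1, the translation repressor that mTORC1 inactivates, fell from 7.51 ± 0.27 to 1.21 ± 0.22 RPKM and Rps6, the ribosomal protein that S6 kinase phosphorylates, from 8.11 ± 0.93 to 3.68 ± 0.53 RPKM. Eef2k, which slows elongation, rose from 8.65 ± 0.46 to 19.99 ± 1.07 RPKM and Eif4b, an initiation factor, by 0.26 ± 0.09 on the log2 scale.

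**Figure D1:**
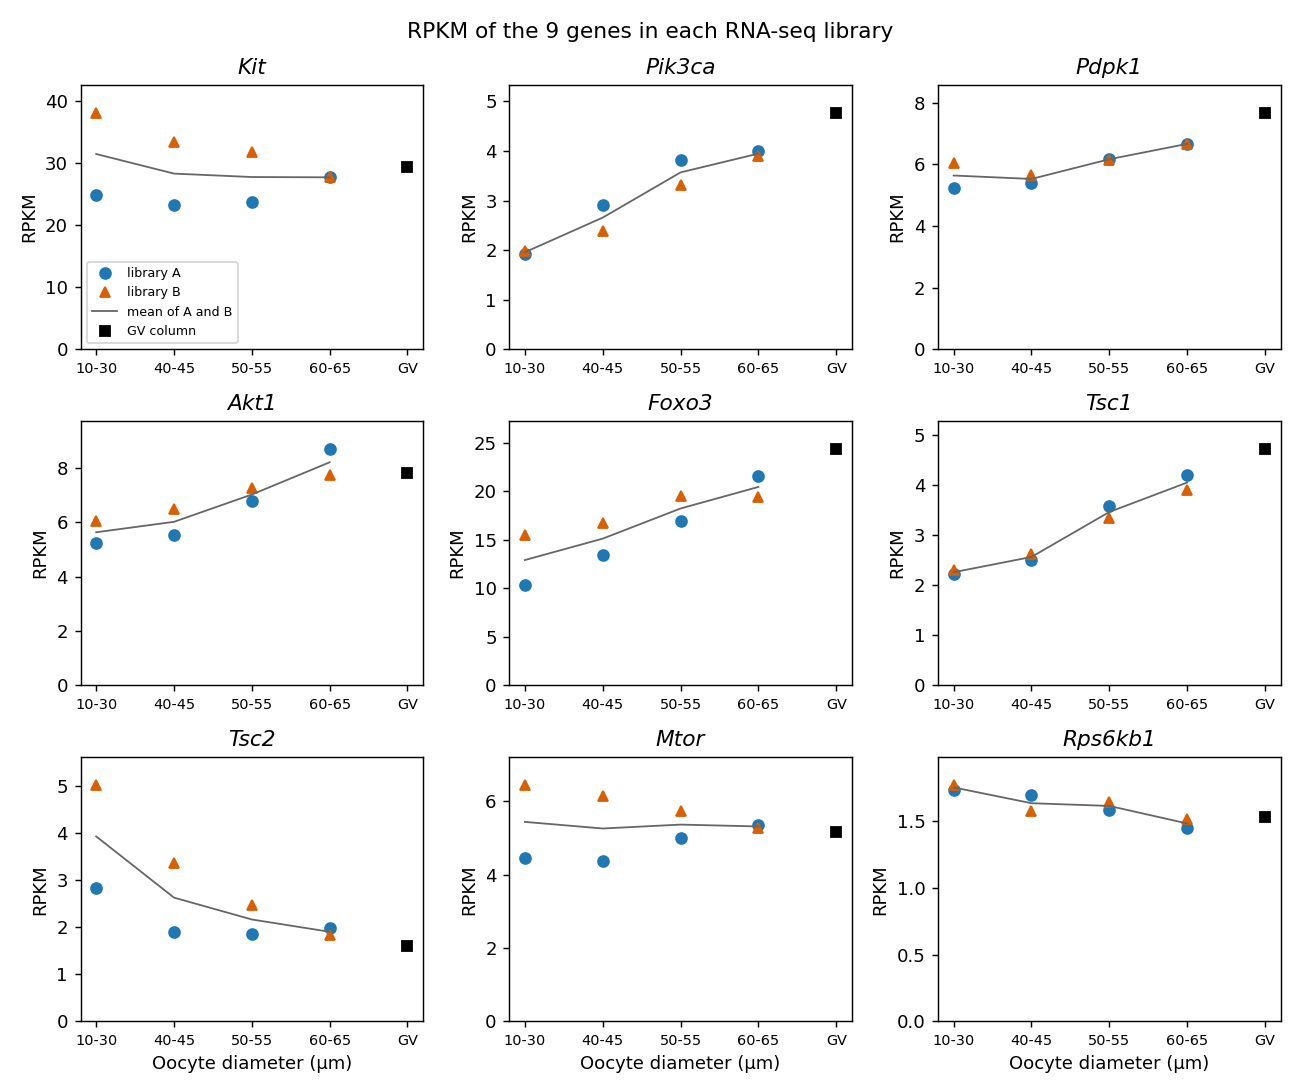
RPKM of each gene (vertical axes from 0) by diameter class for library A (circles) and B (triangles), with the mean of both as a line and the single GV column as a square. Pik3ca, Tsc1, Akt1 and Foxo3 climb, Tsc2 drops, and in Kit, Mtor, Tsc2, Foxo3 and Akt1 library B sits above A within each of the 3 smaller classes.

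Over the whole of growth 6 of the 9 genes passed the test, 5 higher and 1 lower. As background, 63.3% of the 10518 genes tested passed it (31.5% higher and 31.8% lower), so 6 of 9, or 66.7%, is near the background and no result about the set. The median change of the 9 was 0.24 on the log2 scale. From 10–30 to 40–45 μm 1 of 9 passed (Pik3ca, higher) with a background of 23% (13.2% higher and 9.76% lower). From 40–45 to 50–55 μm 1 of 9 passed (Tsc1, higher) with a background of 8.72% (5.27% higher and 3.45% lower). From 50–55 to 60–65 μm limma called 0 of the 9 and 0% of all genes, with 1440 genes at an unadjusted p under 0.05 and none of the 9 among them. The end classes did not overlap for 7 of the 9 genes, against 82.1% of all genes tested. For the steps this held for 3 of 9 from 10–30 to 40–45 μm (background 59.5%), 5 of 9 from 40–45 to 50–55 μm (background 59.5%) and 5 of 9 from 50–55 to 60–65 μm (background 54.4%).

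**Figure D2:**
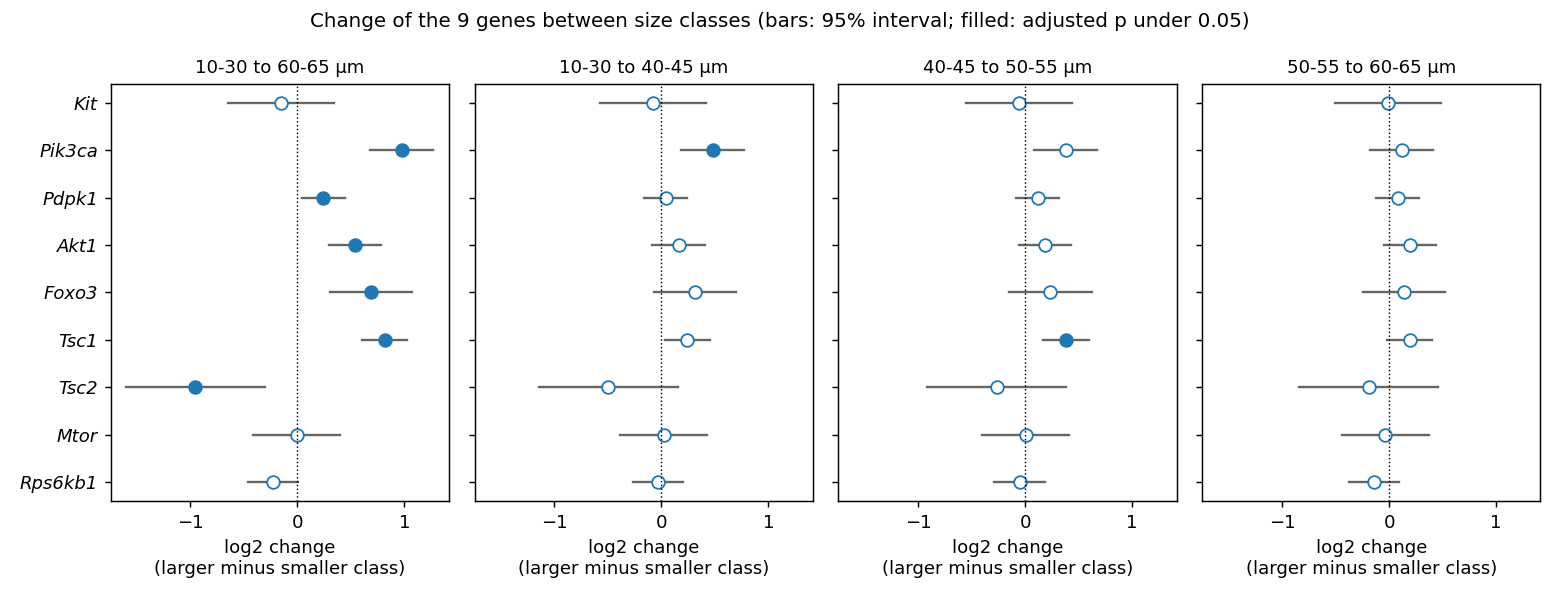
Fitted log2 change (horizontal axis, larger minus smaller class) of each gene for the whole of growth and for the 3 steps, with 95% intervals as bars and filled points where the adjusted p is under 0.05. Filled points stand at 6 genes in the first panel, at Pik3ca in the second, at Tsc1 in the third and at none in the last, and the widest bars are those of Tsc2.

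In the GV column 6 of the 9 genes were above both 60–65 μm libraries, 2 were below both and Akt1, at 7.84 RPKM, lay between them. Over all genes tested 35.1% were above and 46.2% below both. Pik3ca was at 4.76 RPKM, 1.21 times the 60–65 μm mean, Foxo3 at 24.3 (1.19 times), Tsc1 at 4.72 (1.16 times), Pdpk1 at 7.65 (1.15 times), Kit at 29.5 (1.06 times) and Rps6kb1 at 1.53 (1.03 times). Tsc2, at 1.61 RPKM, and Mtor, at 5.16 RPKM, were below. This column has no replicate, and these are values of 1 library.

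DNA methylation of the gene bodies, taken from 2 kb past the start to the end of each gene over positions with at least 5 reads, rose in RRBS in every member that could be tested. Foxo3 had 2.28% and 0.907% in the A and B libraries at 40–45 μm, 20.4% and 25.6% at 50–55 μm and finally, at 60–65 μm, 52.3% and 57.1%, over 22 to 45 positions. Mtor went from 3.39% and 5.69% through 31.8% and 40.2% to 63.6% and 65.0%. Tsc2 went from 3.84% and 12% through 32.2% and 28.7% to 63.5% and 68.5%. The classes did not overlap in any of these genes.

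Akt1 started at 1.40% and 1.09%, reached 15.9% and 21.6% at 50–55 μm and finally, at 60–65 μm, 43.5% and 57.2%. Kit gained least of the 5 genes tested, from 2.0% and 2.49% through 10.9% and 13.3% to 22.8% and 24.2%. In the edgeR quasi-likelihood test all 5 were higher from 40–45 to 60–65 μm, by between 3.93 (Kit, adjusted p = 2.65e-05) and 6.49 (Foxo3, adjusted p = 1.17e-05) in log2 odds of methylation. As background, 87.4% of the 2461 gene bodies tested were called in this comparison, with a median of 4.22, so the calls are not particular to these genes. The same filter kept these 2461 of the 4548 bodies with enough positions, so this is not a share of all bodies. All 5 were also called from 40–45 to 50–55 μm (background 83.4%, of which 83.3% higher and 0.0406% lower) and from 50–55 to 60–65 μm (background 57.2%, of which 57.1% higher and 0.0813% lower). Leaving out either 60–65 μm library removed the calls of the last step, those of all gene bodies included, and leaving out 50–55 μm A left 4 of 5. A coverage minimum of 1 read, or no minimum of the mean, also left 0 of the 5 called in that step.

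Tsc1 had 9 positions in 1 library, under the minimum of 10, and was not tested. Its values were 1.21% and 4.87%, then 24.4% and 16.8%, then 51.1% and 29.8%. Rps6kb1 had 1 position, at 10.6% and 0% at 40–45 μm, 35.9% in the 1 library with a value at 50–55 μm and finally, at 60–65 μm, 67.9% and 80.0%. Pik3ca had 1 position in 1 library and gives no course. Pdpk1 stayed low, at 0.940% and 0.582%, then 3.03% and 6.58%, then 3.51% and 11.9%, and fell under the minimum mean of 5%.

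**Figure D3:**
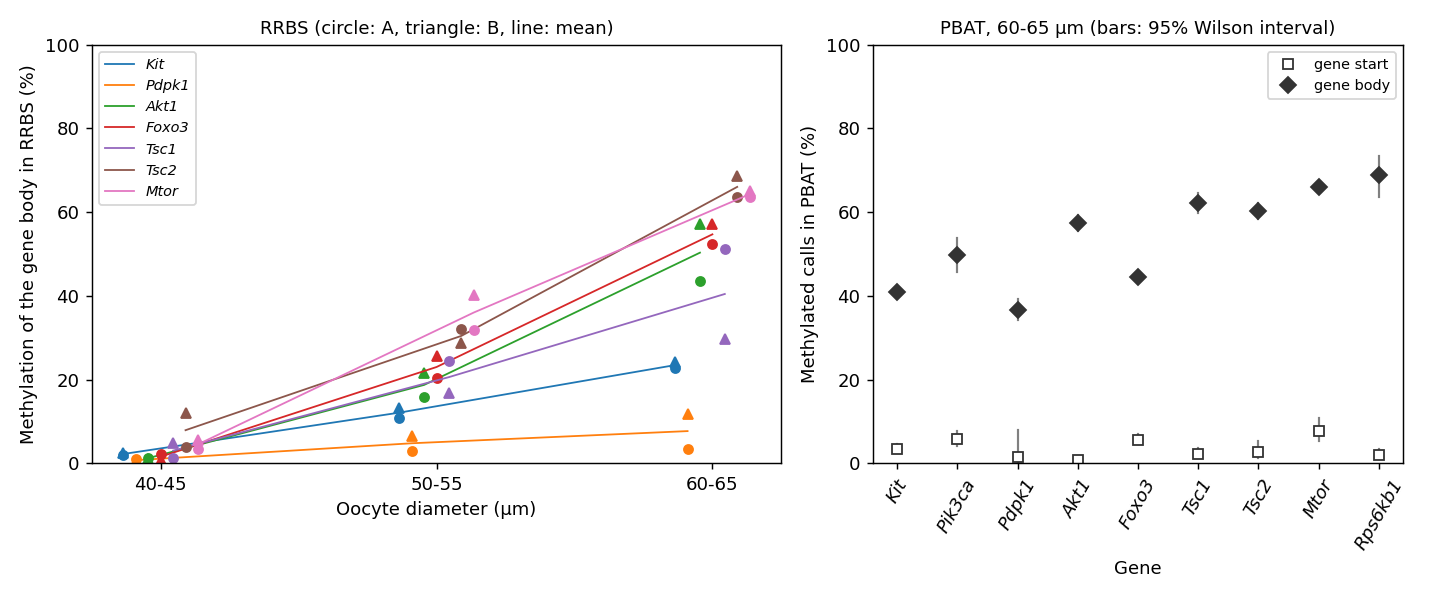
Left, RRBS methylation of the gene body in percent by diameter class for 7 genes, with A as circles, B as triangles and a line through the means. Right, percent of methylated calls in the single PBAT library at the gene start (open squares, 1 kb on each side) and in the gene body (filled diamonds) with 95% Wilson intervals, with all 9 starts below 10% and all 9 bodies above 30%.

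In the PBAT library of 60–65 μm oocytes the bodies of the 9 genes had between 35.1% (Pdpk1, 205 positions) and 65.8% (Rps6kb1, 49 positions) methylation. Mtor had 65.4% over 730 positions, Tsc2 61.2% over 329, Tsc1 61.0% over 226, Akt1 57.2% over 314, Pik3ca 50.3% over 86, Foxo3 44.9% over 661 and Kit 41.5% over 415. The median was 50.8% over the 8498 bodies of genes with at least 0.5 RPKM at this size and 9.69% over the 9086 below that level. Kit, Foxo3 and Pdpk1, with Pik3ca, were below the median of expressed genes, at the 32.1st, 37.8th, 23.1st and 48.8th percentile, and Mtor and Rps6kb1 were at the 85.3rd and 86.1st. With positions of at least 10 reads, Pik3ca had 16.8% over 5 positions and Pdpk1 53.8% over 18, both moves of over 1.5 times.

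The gene starts of all 9 had little methylation, between 0.812% (Akt1, 177 positions) and 7.96% (Mtor, 51 positions). The median was 3.50% over the 9309 starts of genes with at least 0.5 RPKM at this size. Among these, Mtor, Pik3ca and Foxo3 stood at the 89.7th, 81.7th and 79.5th percentile and Kit at the 57.0th. Pdpk1, Akt1, Tsc1, Tsc2 and Rps6kb1 were below the median. At positions of at least 10 reads the Mtor start had 2.5% over 4 positions and the Rps6kb1 start 0.840% over 17, and RRBS gave 0.794% over 7431 calls in the Mtor promoter window. Pooled over the window, Kit had 3.49% of calls methylated, Foxo3 5.63% and Akt1 0.848%. Within the promoter windows shown above, 8 of 342 PBAT calls were methylated at Kit (2.34%, 95% Wilson interval 1.19% to 4.55%), 22 of 492 at Foxo3 (4.47%, 2.97% to 6.68%) and 4 of 259 at the inner start of Pdpk1 (1.54%, 0.602% to 3.90%). The CpG-poor outer start of Pdpk1 had only 4 calls, too few for a level. In RRBS the start windows of the 9 genes had at most 3.60% in any of the 6 libraries. The intervals cover counting error only.

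The rise from start to body came at different distances along the genes. Akt1 had 2.11% over the first 2 kb and 70.1% from 2 to 5 kb, where 71.2% of calls were methylated (95% Wilson interval 66.8% to 75.2%). Tsc2 had 62.7% and Mtor 47.3% in the same stretch. In Foxo3 the low level went on, with 4.59% of calls from 2 to 5 kb (2.43% to 8.50%) 50.3% from 5 to 10 kb (42.5% to 58.1%) and 29.2% from 10 to 20 kb (24.6% to 34.4%). Kit rose later, with 2.38% of calls from 2 to 5 kb (0.655% to 8.27%), 17.7% from 5 to 10 kb (12.8% to 23.9%), 38.0% from 10 to 20 kb (32.9% to 43.3%) and 44.2% beyond (42.3% to 46.1%).

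Tsc1 had 19.0% of calls from 5 to 10 kb, over 4 positions, and 55.5% from 10 to 20 kb (50.3% to 60.5%). In Pdpk1 the order was broken by the inner start, some 9 kb into the gene. Within 1 kb of it the PBAT level was 2.29% over 76 positions, against 54.4% over the other 129 positions of the body. In RRBS, 10 to 41 positions of the Pdpk1 body lay near that start in each library, at 2.0% or less, and the 6 elsewhere had 3.39% and 0% at 40–45 μm, 10.1% and 33.3% at 50–55 μm and finally, at 60–65 μm, 18.1% and 30.4%. The low RRBS level of the Pdpk1 body was thus measured mostly at its CpG-dense inner start.

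**Figure D4:**
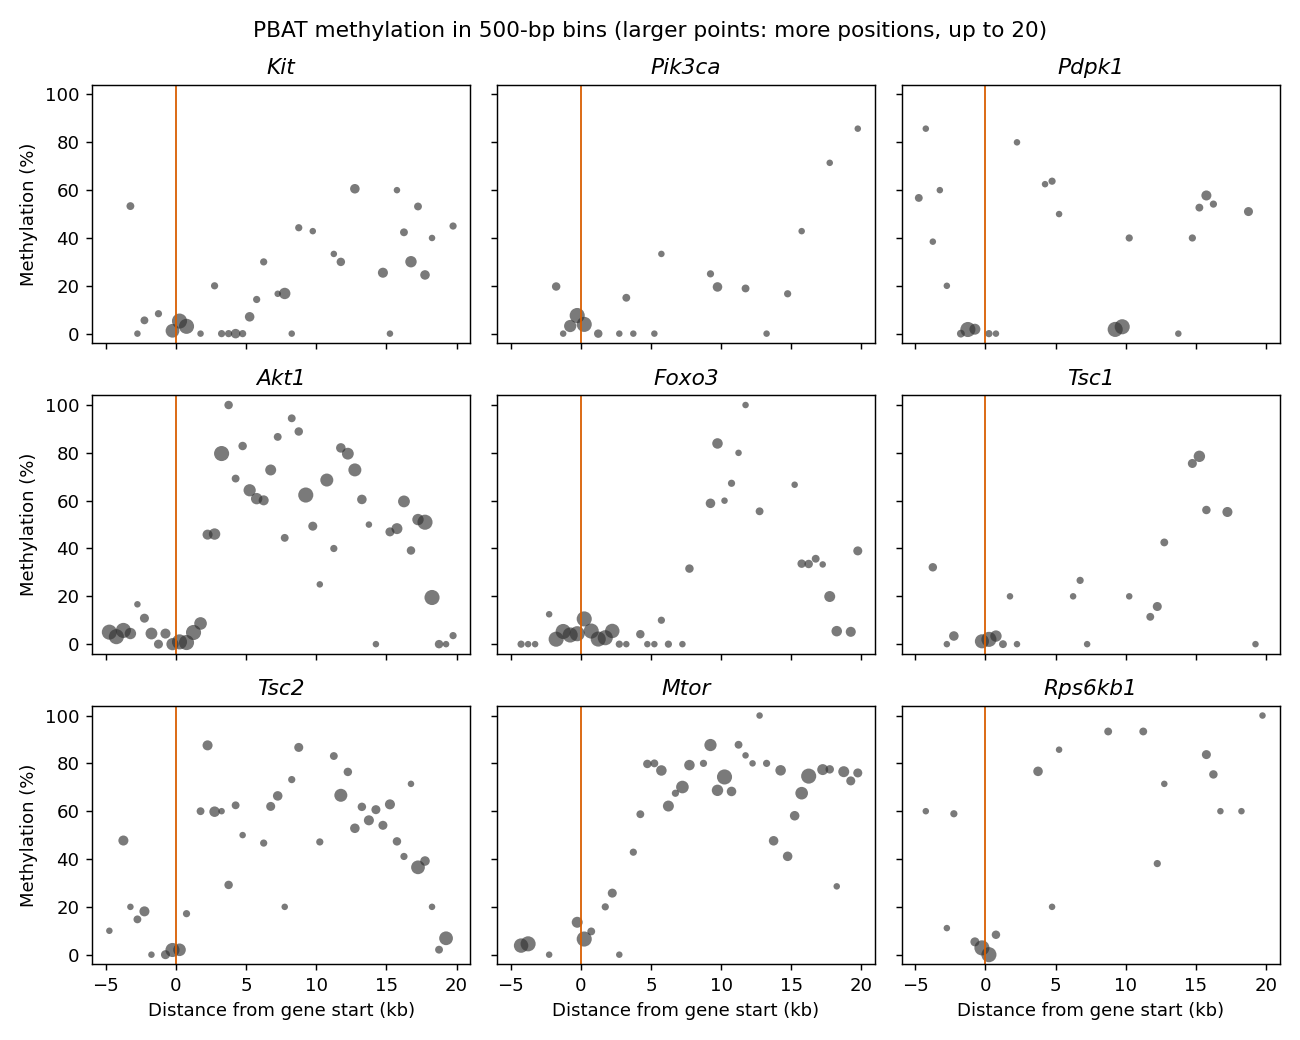
PBAT methylation in percent (vertical axes) in 0.5-kb bins by distance from the gene start in kb, with larger points for more positions and a vertical line at the start. The bins that touch the start are at 13.5% (Mtor) or less in all 9 genes, Akt1, Tsc2 and Mtor climb within 5 kb, Foxo3 between 5 and 10 kb and Kit more gradually from 5 kb on, and Pdpk1 has low points again at 9 to 10 kb.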

How the data were processed

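The authors trimmed RNA-seq reads with Trim Galore 0.2.8, mapped them to GRCm38 with TopHat2 2.0.9 and deposited 1 table of RPKM per gene, not scaled further. Which tool made the table is not given in the sources used here. RRBS and PBAT reads were trimmed with Trim Galore 0.3.5 and aligned with Bismark (0.14.0 for RRBS, 0.10.0 for PBAT), and the authors deposited the percent methylated with counts of methylated and unmethylated calls per CpG cytosine. The 9 members and all gene lists were chosen with earlier results of these data known.

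RPKM were scaled by a trimmed mean (30% by ratio, 5% by level), and genes reaching 0.5 RPKM in any 2 growing libraries were tested with limma 3.58.1 on log2(RPKM + 0.1) with a variance trend, in 1 fit with a mean per class. Fold changes are on that scale and understate low genes. Benjamini-Hochberg adjustment ran over all genes tested, with a threshold of 0.05. From the steps in low values, 1 read on 1 kb was worth between 0.00504 and 0.0101 RPKM. RRBS calls were summed per gene body (at least 10 positions in each of 6 libraries, mean of at least 5%) and tested with edgeR 4.0.16. RRBS libraries held between 29942043 and 57215134 calls and PBAT 98148116. Both fits were tested on simulated data with independent libraries. A difference shared by letter was left out there, so its effect on the fits was not tested. Named list genes are the 2 largest rises and 2 largest falls past the threshold. Some genes that this rule names are not reported here. A few others were chosen after their values were seen, namely Kitl, Col1a1, Col3a1, Cdkn1b, Bcl2l11, Foxo4 and Foxo6. The genes most like Kit or Foxo3 are the 3 with the highest correlation. Alternatives changed the pseudocount, filter, scaling, variance trend, block, coverage or libraries.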

Additional observations from a re-analysis of the deposited data

How the results depend on the processing

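Of 608 log2 changes of members recomputed under the alternatives, 552 kept direction and side of the threshold, 27 lost the call, 3 gained it and 26 changed sign, none of the latter called in the first place. Without a filter on low values, Mtor moved to 0.017 (10–30 to 60–65 μm) and -0.014 (40–45 to 50–55 μm) and Rps6kb1 to 0.031 (10–30 to 40–45 μm), 2 members passed from 10–30 to 40–45 μm, and 0 members and 561 genes from 40–45 to 50–55 μm. With at least 2 RPKM, Mtor was at -0.0093 from 10–30 to 40–45 μm, and 1527 and 523 genes passed in the first 2 steps. With RPKM as deposited, Pdpk1 was at -0.025 and Mtor at -0.044 from 10–30 to 40–45 μm and Kit at 0.013 in the last step. With only the 2 classes compared, Mtor was at 0.0021 over the whole of growth, 0 members passed in either of the first 2 steps, and 962 genes passed from 10–30 to 40–45 μm. A pseudocount of 1 let 8 genes pass in the last step. The cause was not tested.

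Letters A and B are only names here. The differences of B from A correlated between classes by 0.60, 0.59, -0.23, 0.67, -0.026 and 0.11, so not every pair was above 0.1, and in RRBS by 0.0034, -0.031 and -0.016. With a replicate block, 2 members (Tsc1 and Pik3ca) and 1877 genes passed from 40–45 to 50–55 μm, against 1 and 917 without it. The rise of Pik3ca in this step went from an adjusted p of 0.0996 to 0.041 (limma). In the last step 240 genes passed with the block. The block changed no other count of members.

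Leaving out 1 library at a time, between 3 and 5 members passed over the whole of growth and between 0 and 1 in each of the first 2 steps, with between 861 and 2921 genes in the first and between 0 and 1624 in the second. The changes that turned sign ran, over these fits, for Kit from -0.42 to 0.089, from -0.34 to 0.17, from -0.29 to 0.17 and, in the last step, from -0.23 to 0.19; for Mtor from -0.24 to 0.19, from -0.20 to 0.24, from -0.21 to 0.22 and from -0.14 to 0.051; for Rps6kb1 from -0.11 to 0.048 and from -0.13 to 0.025; for Tsc2 from -0.63 to 0.10 and, in the last step, from -0.39 to 0.0039; and for Pdpk1 from -0.016 to 0.080. In RRBS, between 0 and 5 member bodies and between 0 and 1571 of all bodies passed from 50–55 to 60–65 μm. A coverage minimum of 1 read gave 3417 bodies in the first RRBS step. In the second step that minimum, or no minimum of the mean, left 0 members and 0 bodies. Of 71 PBAT values of members, 26 moved beyond their counting interval under another coverage minimum, window or pooling of calls.

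Each class has 2 libraries, and intervals of single genes are as wide as the gap between them makes them. Bodies with few RRBS positions could not be tested.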

Other observations

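Of 29 genes for amino acid and energy sensing upstream of mTORC1, 26 were in the table and 23 were tested, with 5 higher and 11 lower from 10–30 to 60–65 μm and a median of -0.31 on the log2 scale. Rraga and Rragc, GTPases that bring mTORC1 to the lysosome, rose from 7.26 ± 1.38 to 16.4 ± 4.86 RPKM and from 10.7 ± 1.45 to 22.1 ± 1.03 RPKM (SD, n = 2 each). Sesn3, a sestrin that restrains mTORC1, fell from 8.09 ± 0.83 to 4.05 ± 0.28 RPKM and Prkab2, a subunit of the energy sensor AMPK, from 2.82 ± 0.60 to 1.47 ± 0.14 RPKM. Over all 10 pathway lists 58 of the 96 genes tested passed (60.4%), 24 higher and 34 lower. Over all genes tested 63.3% passed, so this share is near the background and no result about the pathway.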
